A study of Mus musculus with 20 samples.

Results

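Testis taken 30 days after birth was compared with testis taken 20 days after birth in a mouse time course of 20 single-channel 3' expression arrays, 2 on each of 10 days from day 0 to day 35. The comparison rests on 4 arrays, the 2 titled day 30 and the 2 titled day 20, chosen by title, with day fitted as a factor over all 20 arrays. Both groups are total RNA of whole mouse testis, and the labels name no strain, genotype, treatment or pooling for either. Nothing in the labels says that the 2 arrays of a day came from separate animals, so p-values measure the spread between these samples only. Values are probe set intensities on the authors' linear scale, and differences are day 30 minus day 20 of log2(intensity + 7.83), with their standard error (SE). The 7.83 is the 20th percentile of all arrays pooled, and it shrinks the difference of a gene that lies near or below it on either day.

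Spermiogenesis turns a round haploid spermatid into a sperm cell. The nucleus elongates while histones are exchanged first for transition proteins and then for protamines, the acrosome spreads over the nucleus, and the tail receives its outer dense fibres, fibrous sheath and mitochondrial sheath. Many of these transcripts are made in round spermatids and stored for later translation. In the interstitium, progenitor Leydig cells mature over the same weeks into adult cells that make testosterone. In RNA of whole testis, fewer cells of a type and less RNA per cell cannot be told apart, and because all arrays share one trimmed mean, a value is a share of the RNA measured.

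A gene was called where limma gave an adjusted p under 0.05 (Benjamini-Hochberg over 16429 genes) and the difference was at least 1 on the log2 scale, which is 2-fold. Of the 16429 genes tested, 1616 were called higher on day 30 than on day 20 (9.84%) and 1106 lower (6.73%). The arrays of the 2 days did not overlap for 1611 of the 1616 and 1099 of the 1106, which the call itself largely sets. Of all 16429 genes, 4546 had both day 30 arrays above both day 20 arrays and 6429 had both below. The rises reached further than the falls: 688 rises exceeded 4-fold, 203 exceeded 16-fold and 32 exceeded 64-fold, against 18, 0 and 0 falls. The median size was 1.79 among the rises and 1.21 among the falls. The neighbouring steps of the course held fewer calls. Day 20 against day 18 had 441 genes higher (2.68%) and 135 lower (0.822%), and day 35 against day 30 had 102 higher (0.621%) and 219 lower (1.33%). Both steps share arrays with the comparison described here.

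The median difference of all genes was -0.10, and -0.27 when each array was set to a common median. Rises made up 59.4% of the calls, but 39.9% with a common median (1308 higher, 1971 lower) and 70.9% when all probe sets of a gene were averaged (1461 higher, 600 lower). Falls of about 2-fold are read below against those settings.

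**Figure D1:**
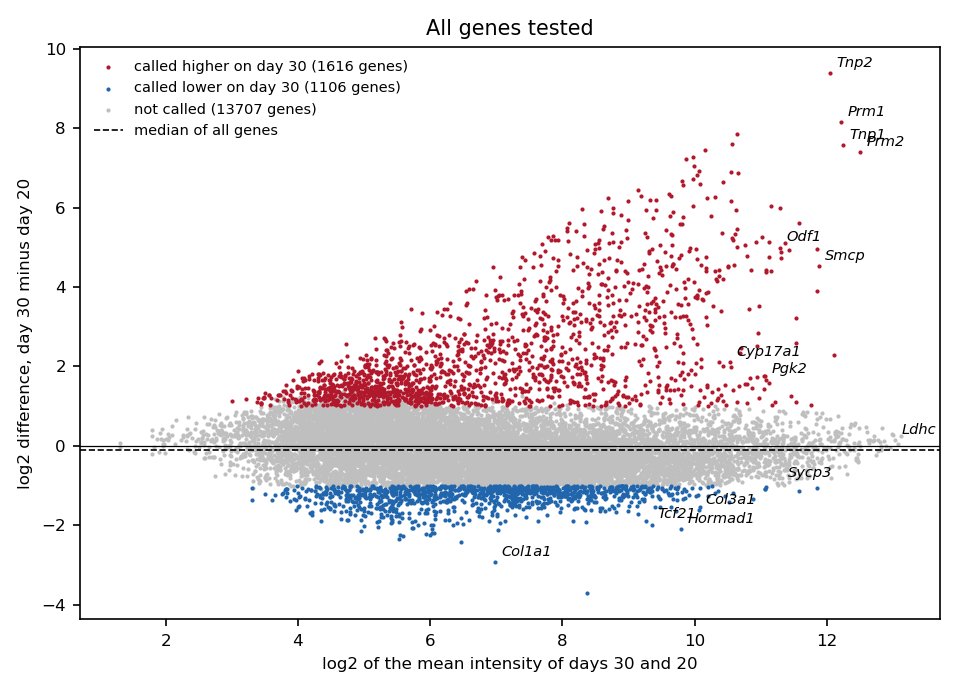
Log2 difference, day 30 minus day 20 (vertical), against log2 of the mean intensity of both days (horizontal), 1 point for each of the 16429 genes tested. The 1616 genes called higher (red) reach a difference of 9.39 at Tnp2, while the 1106 called lower (blue) mostly lie between -1 and -2, and the dashed line marks the median of all genes at -0.10.

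The day 30 arrays had the widest spread of the 10 days, with day 35 next. The log2 intensities of the 2 day 30 arrays correlated across genes with Pearson's r = 0.952, the lowest of the 10 days. Those of day 35 correlated with 0.961 and those of day 20 with 0.968, while the other days reached 0.986. The median SD between the 2 arrays of a day was 0.182 on day 30, 0.163 on day 35 and 0.136 on day 20. Low values lay higher on day 30 than on day 20: the 5th percentile of intensity was 4.83 and 5.54 on the day 30 arrays, against 3.46 and 3.77 on the day 20 arrays. Bacterial control probe sets had medians of 8.46 and 9.56 on day 30, against 4.56 and 6.68 on day 20. On day 35 the 5th percentiles were 3.92 and 4.58, and the bacterial control medians 8.45 and 8.71. The ratio of 3' to 5' actin control probe sets was 2.10 and 2.27 on day 30 and 2.11 and 2.13 on day 20. The same ratio for Gapdh was 1.04 and 0.956 on day 30, the highest of the 20 arrays, against 0.781 and 0.861 on day 20. Leaving out 1 of the 4 arrays at a time gave 1445 to 1722 genes higher and 1102 to 1447 lower. The part of these array differences in the results was not tested.

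Genes of nuclear condensation held the largest differences of the comparison. Of 14 genes of chromatin remodelling in spermatids, 8 rose (57.1%, beside 9.84% of all genes) and 1 fell (7.14%, beside 6.73%). The list median was 3.76 against -0.10 for all genes. Tnp2, which encodes a transition protein that replaces histones, had intensities of 8475 and 8547 on the day 30 arrays, against 3.50 and 6.36 on the day 20 arrays, a difference of 9.39 ± 0.29 (SE; limma, adjusted p = 1.85e-14). Tnp1, the other transition protein, had 9934 and 9421 on day 30, against 58.6 and 30.9 on day 20 (7.58 ± 0.28, limma adjusted p = 1.82e-13). A further probe set of Tnp1 was also called higher, but at 3.47. The arrays of the days did not overlap for either gene, and the day 30 values lie near the top of the scale of these arrays. The protamine genes, whose products pack the DNA of the sperm head, moved likewise. Prm1 had 9499 and 9489 on day 30, against 30.5 and 21.3 on day 20 (8.15 ± 0.42, limma adjusted p = 1.82e-11). Prm2 had 11509 and 11591 on day 30, against 56.1 and 65.9 on day 20 (7.39 ± 0.32, limma adjusted p = 1.54e-12). Prm3, another gene of the protamine cluster, had 2960 and 3339 on day 30, against 69.9 and 58.6 on day 20 (5.46 ± 0.34).

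The spermatid linker histones followed. H1f7, earlier named H1fnt, had 1772 and 1401 on day 30, against 4.86 and 24.4 on day 20, and Hils1 had 5909 and 6102 on day 30, against 124 and 106 on day 20. Their differences were 6.29 ± 0.43 and 5.61 ± 0.24. Camk4, a kinase that phosphorylates Prm2, had 92.9 and 113.8 on day 30, against 12.6 and 26.2 on day 20, and rose by 2.07 ± 0.29, but by 0.51, not called, with the mean of its probe sets. Regulators that act on chromatin before the exchange were not called higher. Brdt, a bromodomain protein that binds acetylated histones, differed by 0.12, Chd5, a remodeller, by 0.49, and Psme4, an activator of the proteasome that degrades acetylated histones, by 0.59. Rnf8, a ubiquitin ligase for histones, fell by 1.45 ± 0.27, with 88.3 and 30.5 on day 30, against 155 and 162 on day 20. The 2 day 30 arrays were far apart for Rnf8, and without the second of them the difference was -0.79 and was not called.

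Histone variants of spermatids were also among the 14 largest rises with a named symbol. H2al2a, a variant of H2A that is loaded together with transition proteins, had 2917 and 3154 on day 30, against 8.05 and 7.53 on day 20 (7.61 ± 0.38). H2bl1, a variant of H2B, had 2015 and 2040 on day 30, against 10.1 and 5.22 on day 20 (7.06 ± 0.40). The X-linked H2A variants H2ap and H2al3 had 2982 and 3433 on day 30, against 12.2 and 29.5 on day 20, and 1131 and 1315 on day 30, against 14.5 and 9.80 on day 20. A further probe set of H2ap gave -0.10 in place of 6.87, so that its rise rests on 1 of 2 probe sets.

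The promoters of Prm1, Prm2 and Tnp2 lie within 8468 bases of one another on chromosome 16 (bases 10788606 to 10797073 of GRCm38.p6), and that of Tnp1 lies on chromosome 1. The sequences below are shown because these 4 genes moved together. They run 5' to 3' on the strand of the gene from 250 bases before its start to 50 after it, from RefSeq: Prm1 at chr16:10796774-10797073, Prm2 at chr16:10792056-10792355, Tnp2 at chr16:10788606-10788905 and Tnp1 at chr1:73015850-73016149, all on the minus strand. Capitals mark TGACGTCA, the palindromic cyclic AMP response element that CREM binds, and TATAAA on either strand.
Prm1: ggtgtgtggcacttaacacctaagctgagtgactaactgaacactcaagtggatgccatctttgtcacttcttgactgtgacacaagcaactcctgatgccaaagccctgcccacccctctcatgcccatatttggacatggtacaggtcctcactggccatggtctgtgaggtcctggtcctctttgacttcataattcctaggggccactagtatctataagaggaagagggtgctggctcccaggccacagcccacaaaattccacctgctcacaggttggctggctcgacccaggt
Prm2: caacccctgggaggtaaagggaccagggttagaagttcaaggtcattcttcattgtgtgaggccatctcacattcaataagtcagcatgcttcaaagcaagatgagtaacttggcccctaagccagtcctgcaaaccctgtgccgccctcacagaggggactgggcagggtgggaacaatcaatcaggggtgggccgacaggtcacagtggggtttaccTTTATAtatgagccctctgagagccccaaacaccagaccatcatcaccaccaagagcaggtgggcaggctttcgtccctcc
Tnp2: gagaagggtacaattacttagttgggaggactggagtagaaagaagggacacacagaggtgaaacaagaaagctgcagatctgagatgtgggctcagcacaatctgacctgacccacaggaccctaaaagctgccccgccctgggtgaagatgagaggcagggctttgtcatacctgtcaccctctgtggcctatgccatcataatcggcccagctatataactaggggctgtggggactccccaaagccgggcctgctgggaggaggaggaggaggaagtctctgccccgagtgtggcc
Tnp1: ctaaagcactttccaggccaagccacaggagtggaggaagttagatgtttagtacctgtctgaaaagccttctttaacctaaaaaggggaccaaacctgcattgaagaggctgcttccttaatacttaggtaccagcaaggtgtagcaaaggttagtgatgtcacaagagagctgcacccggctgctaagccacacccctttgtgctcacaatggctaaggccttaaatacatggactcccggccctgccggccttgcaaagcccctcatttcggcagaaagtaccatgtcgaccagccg

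In these windows TGACGTCA was found in none of the 4, and the single match of TATAAA was in Prm2, on the opposite strand at -31 from the start (written TTTATA). Crem itself, the activator of many spermatid genes, had 1131 and 1132 on day 30, against 814 and 748 on day 20, and was not called (0.53 ± 0.24, limma adjusted p = 0.0862).

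TGACGTCA was present in the promoters of 4 of the 114 described genes that had a promoter in the table: Izumo1, Ccin, Kif17 and Mcm5. The promoters of Izumo1, at chr7:45621561-45621860, and Ccin, at chr4:43983254-43983553, both on the plus strand, are shown because the element stands in them at -96 and -50 from the start and both genes rose.
Izumo1: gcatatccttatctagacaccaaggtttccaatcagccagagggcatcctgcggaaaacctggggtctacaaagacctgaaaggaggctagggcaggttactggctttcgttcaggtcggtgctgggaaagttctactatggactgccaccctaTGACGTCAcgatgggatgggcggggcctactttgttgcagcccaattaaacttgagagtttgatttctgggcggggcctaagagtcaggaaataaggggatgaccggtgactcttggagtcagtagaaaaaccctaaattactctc
Ccin: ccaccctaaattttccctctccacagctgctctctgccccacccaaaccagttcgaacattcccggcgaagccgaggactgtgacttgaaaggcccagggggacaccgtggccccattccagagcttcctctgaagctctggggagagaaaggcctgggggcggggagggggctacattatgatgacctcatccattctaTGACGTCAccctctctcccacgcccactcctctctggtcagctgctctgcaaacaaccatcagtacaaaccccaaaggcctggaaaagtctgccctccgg

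Counted over the RefSeq table, TGACGTCA was present in 2.03% of the promoters of genes called higher, 2.84% of those of genes called lower, 2.58% of those of all genes tested and 1.79% of all promoters of the table. Among the promoters of genes over 16-fold higher the share was 3.92% (8 of 204). The shorter TGACG on either strand, which is part of TGACGTCA, was present in 21.3% of the promoters of genes called higher, 27.6% of those called lower, 27.5% of those tested and 20.8% of all. For TATAAA on either strand the shares, in the same order, were 11%, 7.78%, 8.93% and 13.6%. For AAGGTCA on either strand, a motif of several orphan nuclear receptors, they were 5.73%, 3.20%, 3.70% and 4.72%. These are descriptions of letters in a window of 300 bases.

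**Figure D2:**
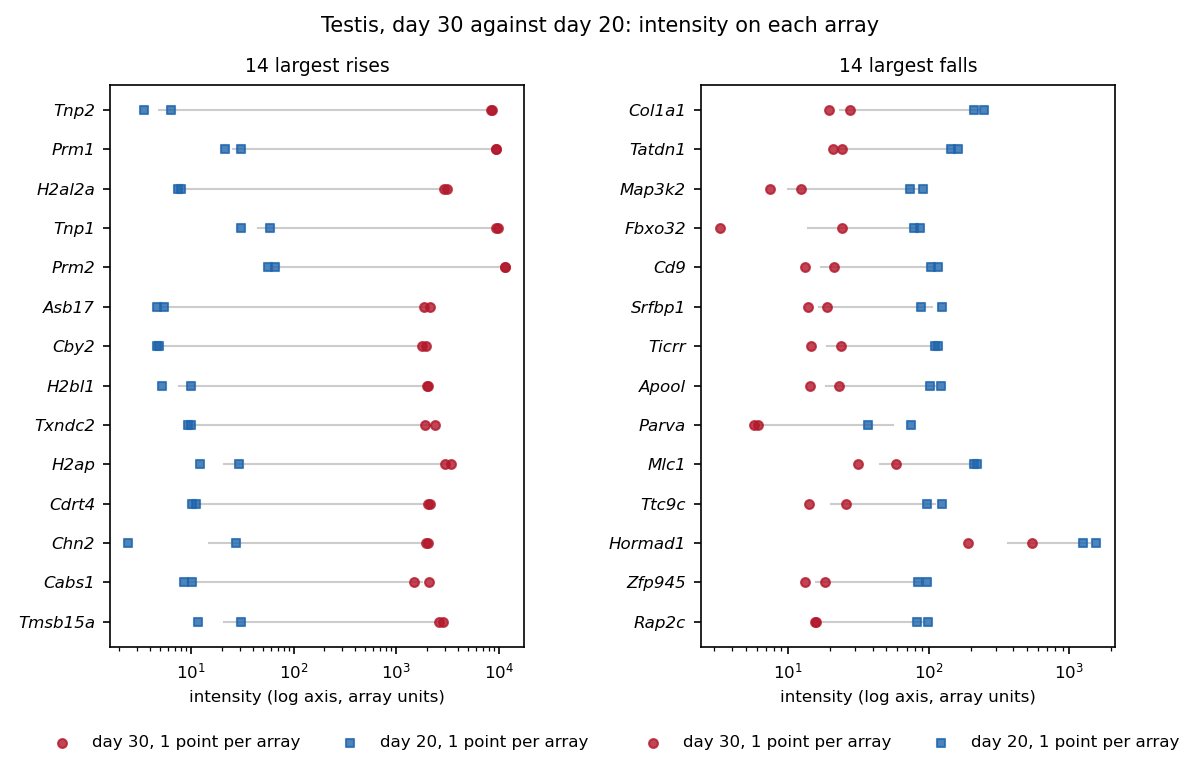
Intensity on each array (horizontal, log axis) of the 14 largest rises (left) and the 14 largest falls (right) with named symbols, day 30 in red circles and day 20 in blue squares, and a grey line between the day means. The rises have day 30 means of at least 1792 and day 20 means of at most 61.0, and 13 of the 14 falls have day 20 means under 250.

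The remaining genes among the 14 largest rises were of several kinds. Asb17, an adaptor of ubiquitin ligases found in testis, had 2162 and 1866 on day 30, against 4.72 and 5.42 on day 20. Cby2, a protein of spermatids, had 1962 and 1783 on day 30, against 4.69 and 4.92 on day 20. Txndc2, a thioredoxin of the sperm fibrous sheath, had 2375 and 1895 on day 30, against 10.0 and 9.36 on day 20. These 3 probe sets were near the constant of 7.83 on day 20, so the sizes of 7.29, 7.22 and 6.93 are set partly by it. Cabs1, a calcium-binding protein of the sperm tail, had 2081 and 1504 on day 30, against 10.3 and 8.64 on day 20. Tmsb15a, a thymosin that binds actin monomers, had 2854 and 2631 on day 30, against 11.8 and 30.5 on day 20. Cdrt4 had 2124 and 2054 on day 30, against 10.2 and 11.2 on day 20. Chn2, which activates the GTPase of Rac, had 1959 and 2037 on day 30, against 2.46 and 27.4 on day 20, but a further probe set of Chn2 was called the other way, at -1.09.

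Many genes of the sperm tail rose. Of 22 tested genes of the fibrous sheath, outer dense fibres and mitochondrial sheath, 16 were called higher (72.7%, beside 9.84% of all genes) and 0 lower. Their median was 3.54. Odf1, a major protein of the outer dense fibres, had 4892 and 4830 on day 30, against 117 and 180 on day 20 (4.99 ± 0.34, limma adjusted p = 6.48e-10). Akap4, the X-linked scaffold of the fibrous sheath that anchors protein kinase A, had 2961 and 3007 on day 30, against 61.4 and 88.8 on day 20 (5.19 ± 0.37). Akap3, its partner in the sheath, had 6986 and 6863 on day 30, against 448 and 457 on day 20. All 3 genes had arrays that did not overlap between the days. Smcp, a cysteine-rich protein of the mitochondrial sheath, had 7233 and 7187 on day 30, against 359 and 258 on day 20 (4.53 ± 0.36). Spem1, which is needed to shed the cytoplasm from the sperm head, had 1148 and 1234 on day 30, against 27.3 and 16.2 on day 20 (5.37 ± 0.38). Spata19, a mitochondrial protein of spermatids, had 5311 and 5431 on day 30, against 215 and 132 on day 20. Oaz3, an antizyme of spermatids, had 5418 and 4913 on day 30, against 143 and 143 on day 20 (5.10 ± 0.39), but only 1 of its 5 further probe sets was called, and the mean over its probe sets was 2.27. Tekt4 (1.81) was not called with the constant at the 5th percentile.

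The other 6 genes of this list were not called. Gpx4, a selenoprotein of the mitochondrial sheath, had 6723 and 6534 on day 30, against 4600 and 4251 on day 20, a difference of 0.58. Odf2, a fibre protein that also occurs in centrosomes, differed by -0.06.

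The acrosome list was split in 2 blocks. Of 25 tested genes, 12 rose (48%, beside 9.84% of all genes), all by over 2 on the log2 scale. With the mean of its probe sets, Spaca3 gave 1.57 in place of 3.28. The other 13 were not called, with differences between -0.19 and 0.66. With no threshold on size, 15 of the 25 were higher at an adjusted p under 0.05, as were 2380 of the 16429 genes tested. Among the rises, Izumo1, the sperm protein that binds its receptor on the egg, had 608 and 667 on day 30, against 43.7 and 7.97 on day 20 (4.50 ± 0.41, limma adjusted p = 3.36e-08). Acrv1, a protein of the acrosomal matrix, had 1851 and 1607 on day 30, against 190 and 181 on day 20 (3.16 ± 0.36). Spaca4, Spaca7 and Tmem190, membrane or matrix proteins of the acrosome, differed by 3.79, 3.61 and 3.54, and the hyaluronidase genes Hyal5 and Spam1 by 3.48 and 2.35. Among the genes not called, Acr, the protease acrosin, had 1430 and 1492 on day 30, against 938 and 967 on day 20. Zpbp, which binds the zona pellucida, had 3139 and 2651 on day 30, against 1918 and 1831 on day 20, and Adam2, a subunit of fertilin, had 2497 and 2071 on day 30, against 2258 and 2572 on day 20. On day 14 Zpbp had 224 and 170, while Izumo1 had 0.904 and 1.74 and Acrv1 had 5.98 and 6.50.

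Of 17 genes of the perinuclear theca, actin-like proteins and actin capping, 13 rose (76.5%, beside 9.84% of all genes) and 0 fell, with a median of 2.36. Actrt2, an actin-related protein of the theca, had 1895 and 1848 on day 30, against 56.2 and 53.0 on day 20 (4.91 ± 0.40). Capza3, a sperm subunit of the actin capping protein, had 2385 and 2029 on day 30, against 110 and 82.9 on day 20 (4.41 ± 0.34). Ccin, which encodes the theca protein calicin, had 638 and 524 on day 30, against 9.35 and 29.0 on day 20 (4.54 ± 0.51), and its promoter is shown above. Spatc1, a centrosomal protein of sperm, had 355 and 289 on day 30, against 5.71 and 7.38 on day 20. The profilin Pfn3 differed by 4.06, and the cylicin genes Cylc2 and Cylc1 by 2.23 and 1.43. The call of Cylc1 ended without the first day 20 array (0.74), without the first day 30 array (1.25) and in a fit of days 20 and 30 alone. Tuba3b (1.47) of the same list lost its call with quantile normalization (1.33), with a common median (1.27) and without any 1 of the 4 arrays, among other settings.

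Kinases and ion channels of sperm included both large rises and genes that were not called. Of 15 kinases, phosphatases and cyclases, 7 rose (46.7%, beside 9.84% of all genes) and 0 fell. They included 5 testis-specific serine kinases. Tssk2 had 3021 and 3132 on day 30, against 71.7 and 66.6 on day 20 (5.33 ± 0.28), and Tssk6, needed for condensation of the sperm nucleus, had 1826 and 1763 on day 30, against 15.5 and 40.03 on day 20 (5.75 ± 0.39). Tssk3 differed by 5.07, but its further probe set by -0.30 and the mean of both by 2.39. Adcy10, the soluble adenylyl cyclase that bicarbonate activates, had 637 and 576 on day 30, against 184 and 163 on day 20 (1.76 ± 0.30). Prkaca, a catalytic subunit of protein kinase A, differed by -0.26 and was not called. Of 11 channel and pump genes, 5 rose (45.5%, beside 9.84% of all genes). Catsper1 and Catsper3, pore subunits of the sperm calcium channel, differed by 3.24 ± 0.43 and 3.59 ± 0.47. Catsper2, another pore subunit, had 1328 and 1487 on day 30, against 1081 and 1001 on day 20, and was not called (0.43 ± 0.15). Atp1a4, a sodium pump of sperm, differed by 3.80 ± 0.40, and Lrrc52 by 2.82 ± 0.50, or by 1.14 when its further probe set was averaged in.

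Of 22 tested axoneme genes, 2 rose (9.09%, beside 9.84% of all genes) and 0 fell, and the median was -0.03. Spag6, a protein of the central pair, had 872 and 865 on day 30, against 95.4 and 71.5 on day 20 (3.28 ± 0.32). Tekt2, a tektin of the doublet microtubules, had 1862 and 1659 on day 30, against 416 and 463 on day 20 (1.98 ± 0.19). Dnah8, a dynein heavy chain of the sperm tail, had 2304 and 2063 on day 30, against 3811 and 3886 on day 20 (-0.82 ± 0.13). Of the 15 alternative settings, the common median alone gave a call, at -1.02. Hydin, of the central pair, had 263 and 316 on day 30, against 157 and 169 on day 20 (0.80 ± 0.29). The axoneme list had 2 calls of 22 and the sheath list 16 of 22, as counts on 2 lists whose difference was not tested. The sheath list also holds Spem1 and the tektin genes Tekt4 and Tekt5 (1.81 and 1.45), all called, so the lists do not cleanly divide the parts of the tail.

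**Figure D3:**
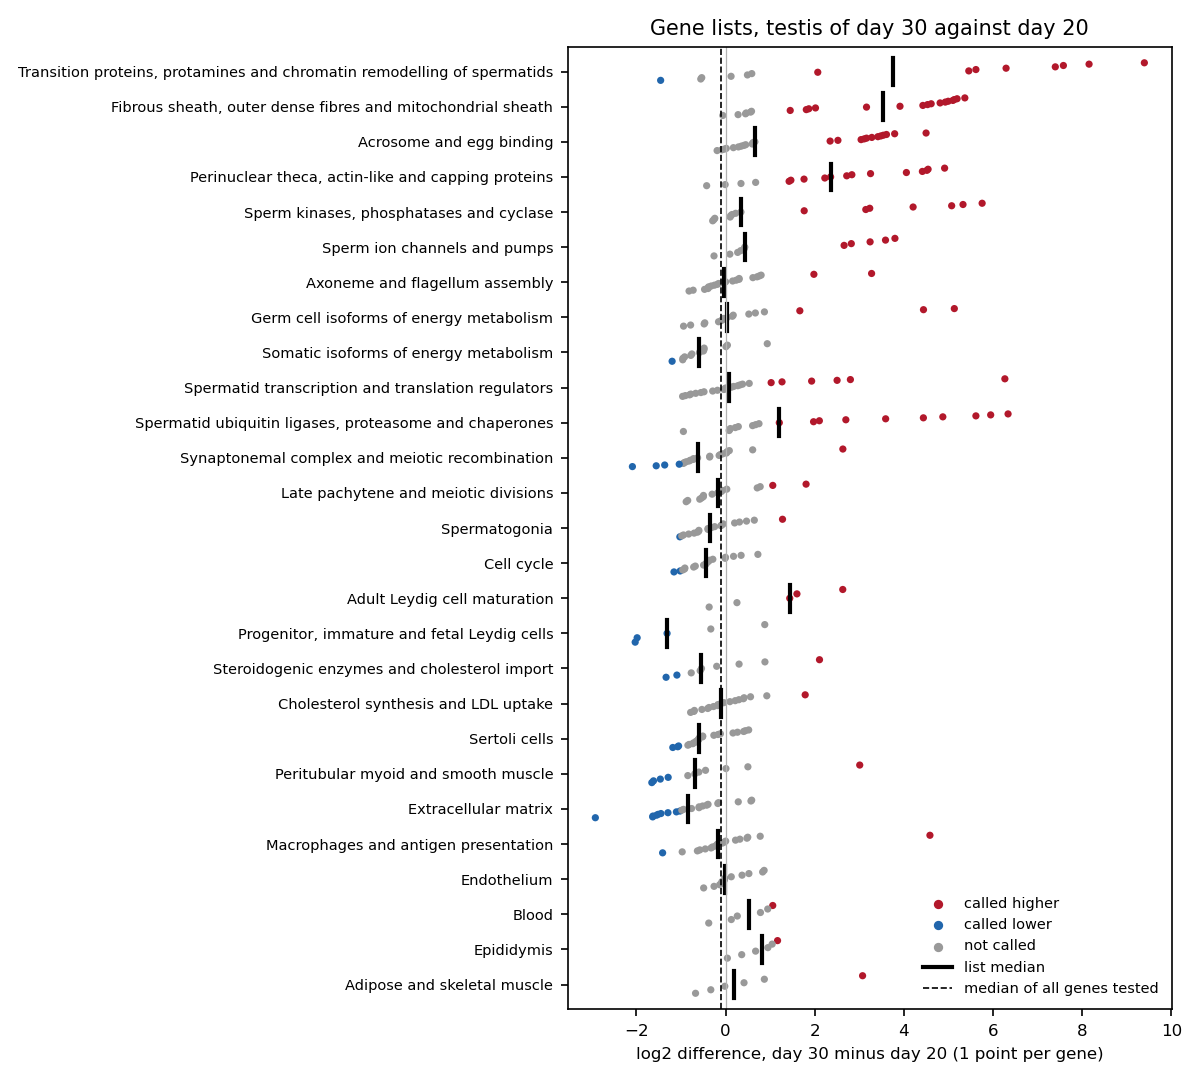
Log2 difference, day 30 minus day 20 (horizontal), of each tested gene in 27 lists (1 row per list, 1 point per gene), coloured by call, with the list median as a black bar and the median of all genes tested as a dashed line at -0.10. The lists of nuclear condensation, sheath and theca have medians of 3.76, 3.54 and 2.36, and the matrix list has the lowest median apart from progenitor Leydig cells, at -0.85.

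Of 17 germ cell isoforms of energy metabolism, 3 rose (17.6%, beside 9.84% of all genes) and 0 fell (median 0.04). Of 13 somatic isoforms, 0 rose and 1 fell (7.69%, beside 6.73% of all genes), with a median of -0.58. Gapdhs, the glyceraldehyde phosphate dehydrogenase of the fibrous sheath, had 4017 and 3549 on day 30, against 120 and 83.6 on day 20 (5.13 ± 0.20, limma adjusted p = 3.53e-13). Aldoart1, a testis aldolase, had 517 and 595 on day 30, against 18.1 and 18.1 on day 20 (4.44 ± 0.34). Its somatic counterpart Aldoa was also higher, with 1363 and 1254 on day 30, against 659 and 700 on day 20. Aldoa stayed under the 2-fold threshold (0.94 ± 0.09), with 0.39 to 0.95 in its further probe sets. Pgk2, the germ cell phosphoglycerate kinase, had 3475 and 3109 on day 30, against 1111 and 955 on day 20 (1.67 ± 0.33). Pgk2 lost its call at a constant set to the 5th percentile, where the adjusted p was 0.0555 by limma. Its X-linked somatic counterpart Pgk1 had 200 and 143 on day 30, against 394 and 401 on day 20 (-1.20 ± 0.12), and was not called when its probe sets were averaged (-0.67) or without the second day 30 array (-0.97). Gapdh, the somatic counterpart of Gapdhs, is measured here only by control probe sets, whose 3' value was 1267 and 1218 on day 30, against 1559 and 1683 on day 20. Their 5' value was 1221 and 1274 on day 30, against 1997 and 1954 on day 20.

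Other germ cell isoforms were not called. Ldhc, the lactate dehydrogenase of germ cells, had 8858 and 8848 on day 30, against 7839 and 8081 on day 20 (0.15 ± 0.22). Pdha2, a subunit of pyruvate dehydrogenase, had 1473 and 1332 on day 30, against 1520 and 1606 on day 20. Cyct and Cycs, the testis and somatic cytochromes c, differed by -0.78 and -0.75. The somatic isoform Pgam1 (-0.96) was not called, but was called lower with a common median (-1.15), among other settings. The ADP/ATP carriers Slc25a31, of germ cells, and Slc25a4, of somatic cells, differed by -0.94 and -0.96, and both were called lower with a common median, at -1.14 and -1.16, and without the first day 30 array, at -1.09 and -1.17. Slc25a4 was also called without the second day 20 array (-1.02).

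**Figure D4:**
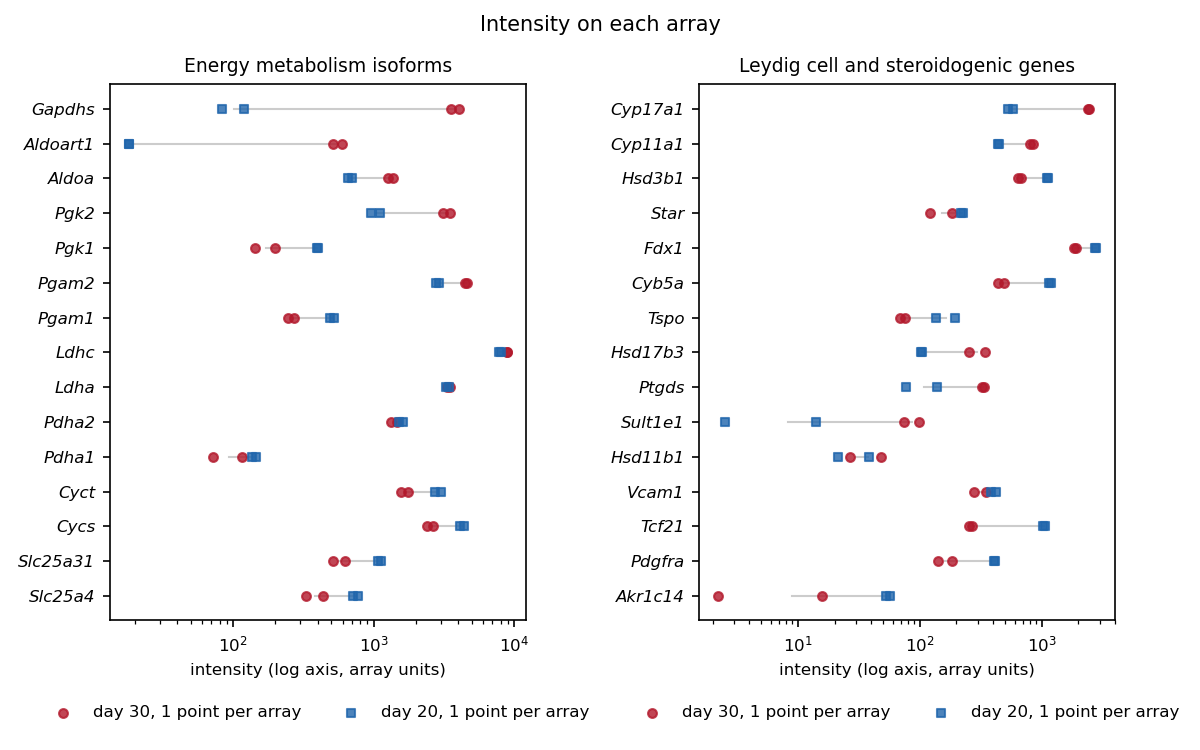
Intensity on each array (horizontal, log axis), day 30 in red circles and day 20 in blue squares, for isoforms of energy metabolism (left) and for Leydig cell and steroidogenic genes (right), with a grey line between the day means. Gapdhs, Aldoart1, Pgk2, Cyp17a1, Hsd17b3, Ptgds and Sult1e1 stand higher on both day 30 arrays, and Tcf21, Pdgfra, Akr1c14, Cyb5a and Tspo stand lower.

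Among 24 regulators of transcription and translation in spermatids, 6 rose (25%, beside 9.84% of all genes) and 0 fell (median 0.07). Fhl5, also called ACT, which partners CREM in spermatids, had 2716 and 2322 on day 30, against 14.0 and 41.3 on day 20 (6.26 ± 0.46, limma adjusted p = 1.87e-09). Kif17, the kinesin that carries Fhl5 out of the nucleus, had 599 and 683 on day 30, against 114 and 99.4 on day 20 (2.50 ± 0.40). Sox5, a transcription factor with a testis form, had 446 and 374 on day 30, against 57.6 and 46.8 on day 20 (2.80 ± 0.36); 3 of its 6 further probe sets were called the same way and the mean over its probe sets was 1.40. Rfx3, a factor of ciliary genes, differed by 1.93 but by -0.64 in its further probe set, and was not called as their mean. Papolb, a testis poly(A) polymerase, had 1895 and 1922 on day 30, against 1002 and 873 on day 20 (1.02), a call that ended with quantile normalization (0.97), a common median (0.82), the mean of its probe sets (0.55) and without the second day 20 array (0.92). Zmynd15, a repressor of transcription in spermatids, had 683 and 691 on day 30, against 296 and 267 on day 20. Ddx4, the germ cell RNA helicase, differed by -0.18 and Piwil1, a partner of pachytene piRNAs, by -0.55, and neither was called.

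Of 19 ubiquitin ligases, proteasome subunits and chaperones of spermatids, 10 rose (52.6%, beside 9.84% of all genes) and 0 fell, with a median of 1.21. Hspa1l, a testis member of the Hsp70 family, had 1508 and 1604 on day 30, against 16.1 and 7.86 on day 20 (6.34 ± 0.30, limma adjusted p = 5.15e-12). Hspa2, the family member of spermatocytes, had 2000 and 2383 on day 30, against 2073 and 2028 on day 20 (0.09 ± 0.14). The RING proteins Rnf133 and Rnf148 had 1418 and 1269 on day 30, against 4.15 and 32.2 on day 20, and 589 and 506 on day 30, against 3.58 and 3.35 on day 20. Klhl10, an adaptor of the Cul3 ubiquitin ligase needed in spermatids, had 2449 and 2647 on day 30, against 124 and 97.8 on day 20, while Cul3 itself differed by 0.11. Dnajb8, a co-chaperone, had 1403 and 1514 on day 30, against 46.8 and 37.9 on day 20 (4.87 ± 0.32). The endoplasmic reticulum chaperones Calr3 and Pdilt differed by 3.59 and 2.70. Ube2j1 differed by 1.97, but by 0.99, not called, with the mean of its probe sets.

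Of 23 genes of the synaptonemal complex and recombination, 4 fell (17.4%, beside 6.73% of all genes) and 1 rose (4.35%, beside 9.84%), with a median of -0.63 beside -0.10. Hormad1, a protein of the meiotic chromosome axis, had 545 and 192 on day 30, against 1564 and 1260 on day 20 (-2.09 ± 0.33, limma adjusted p = 3.21e-05). The 2 day 30 arrays were far apart for this gene, and without the second of them the difference was -1.35. Ccnb1ip1, needed for crossovers, had 128 and 121 on day 30, against 363 and 397 on day 20 (-1.55 ± 0.15). The X-linked Tex11, a meiotic recombination protein, had 26.4 and 41.4 on day 30, against 109 and 87.4 on day 20 (-1.36 ± 0.18). Meiob (-1.04) lost its call with quantile normalization (-0.91), with the constant at the 40th percentile (-0.97) and without the second day 20 array (-0.91). Sycp3, of the lateral elements, had 1948 and 1547 on day 30, against 3550 and 3157 on day 20 (-0.94 ± 0.10), and was not called. It was called with a common median (-1.15), with quantile normalization (-1.03), without the first day 30 array (-1.11) and without the second day 20 array (-1.03). Rec8, a meiotic cohesin, rose, with 207 and 161 on day 30, against 23.5 and 22.2 on day 20 (2.63 ± 0.31).

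Late pachytene and division genes had 2 rises (13.3%, beside 9.84% of all genes) and 0 falls among 15. Bub1b (-0.88) and Piwil2 (-0.85) were not called, but were called lower with a common median (-1.07 and -1.05). Cdc25c, the phosphatase that starts M phase, had 57.2 and 65.0 on day 30, against 19.1 and 6.56 on day 20 (1.81 ± 0.26), with 0.80 in its further probe set. H1f6, the testis linker histone, had 24.7 and 42.8 on day 30, against 13.04 and 10.3 on day 20 (1.06 ± 0.42), and 8 of the 15 alternative settings ended that call.

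Of 20 spermatogonial genes, 1 rose (5%, beside 9.84% of all genes) and 1 fell (5%, beside 6.73%). Stra8, induced by retinoic acid before meiosis, had 147 and 136 on day 30, against 297 and 295 on day 20 (-1.02 ± 0.11), and lost its call with quantile normalization (-0.89), with the constant at the 40th percentile (-0.96) and without the second day 30 array (-0.97). Ret, a receptor of spermatogonial stem cells, had 29.7 and 53.0 on day 30, against 7.67 and 17.2 on day 20 (1.28 ± 0.35). Its further probe set gave -0.02, and it was not called without the second day 30 array (0.93) or the first day 20 array (0.93), with the constant at the 40th percentile (0.88), with the mean of its probe sets (0.63) or in a fit of days 20 and 30 alone. Kit differed by -0.10 ± 0.36. Lin28a (-0.98) and Ccnd2 (-0.94) were not called, but were called lower with a common median (-1.14 and -1.13), among other settings. Of 19 cell cycle genes, 2 fell (10.5%, beside 6.73% of all genes) and 0 rose (median -0.43). Both were subunits of the replicative helicase. Mcm6 (-0.96) and Cdc6 (-0.92) were not called, but were called lower with a common median (-1.15 and -1.05), among other settings. Mcm2 had 203 and 107 on day 30, against 332 and 346 on day 20, and lost its call without the second day 30 array (-0.72). Mcm5 had 175 and 215 on day 30, against 400 and 402 on day 20 (-1.02 ± 0.09), but another of its probe sets was called higher (1.71), and the mean over its probe sets was 0.12. Its call also ended with quantile normalization (-0.87), with the constant at the 40th percentile (-0.97) and without the first day 30 array (-0.88).

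Leydig cell genes were called in both directions. Of 5 tested genes of adult Leydig cells, 3 rose (60%, beside 9.84% of all genes) and 0 fell. Of 5 tested genes of progenitor, immature and fetal Leydig cells, 0 rose and 3 fell (60%, beside 6.73% of all genes). Hsd17b3, the enzyme that makes testosterone, had 253 and 342 on day 30, against 102 and 105 on day 20 (1.44 ± 0.13, limma adjusted p = 3.08e-08). Ptgds, prostaglandin D synthase, had 325 and 338 on day 30, against 77.0 and 140 on day 20 (1.60 ± 0.18). Sult1e1, the estrogen sulfotransferase, had 74.2 and 98.3 on day 30, against 14.1 and 2.52 on day 20 (2.63 ± 0.43). For all 3 the day 30 arrays lay above both day 20 arrays. Hsd17b3 and Ptgds were higher still on day 0, with means of 1279 and 2911, against 297 and 332 on day 30. Hsd11b1, the glucocorticoid-converting enzyme of adult Leydig cells, had 48.0 and 26.6 on day 30, against 38.6 and 21.3 on day 20, with overlapping arrays (0.26 ± 0.45), and Vcam1 differed by -0.37 ± 0.19.

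On the side of the less mature cells, Tcf21, a transcription factor of interstitial progenitors, had 266 and 252 on day 30, against 1019 and 1073 on day 20 (-1.98 ± 0.11, limma adjusted p = 4.39e-11). A further probe set of Tcf21 gave 0.89, and their mean was not called. Pdgfra, the receptor of progenitor Leydig cells, had 185 and 141 on day 30, against 405 and 418 on day 20 (-1.31 ± 0.18). Akr1c14, which reduces androgens in immature Leydig cells, had 15.7 and 2.22 on day 30, against 56.9 and 52.8 on day 20 (-2.03 ± 0.28). Thbs2, a matrix glycoprotein gene of the same list, had 14.0 and 23.2 on day 30, against 8.40 and 4.46 on day 20, and was not called (0.88 ± 0.26, limma adjusted p = 0.00834). It was called higher with the constant at the 5th percentile (1.34), without the first day 30 array (1.13) and without the first day 20 array (1.08). Insl3 and Hsd3b6, 2 further genes of adult Leydig cells, and Srd5a1, of immature ones, are not analysed here.

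Among 9 steroidogenic genes, 1 rose (11.1%, beside 9.84% of all genes) and 2 fell (22.2%, beside 6.73%). Cyp17a1, which converts progestogens to androgens, had 2465 and 2384 on day 30, against 529 and 585 on day 20 (2.11 ± 0.12, limma adjusted p = 5.35e-11). Cyp11a1, the side-chain cleavage enzyme, had 804 and 844 on day 30, against 438 and 447 on day 20 (0.88 ± 0.15), with arrays apart but under the 2-fold threshold. Hsd3b1, the next enzyme of the pathway, had 672 and 635 on day 30, against 1119 and 1118 on day 20 (-0.77 ± 0.13), and Star, which brings cholesterol into mitochondria, had 122 and 183 on day 30, against 217 and 225 on day 20 (-0.54 ± 0.19). Cyb5a, the cytochrome b5 that aids the lyase step of Cyp17a1, had 435 and 490 on day 30, against 1152 and 1200 on day 20 (-1.33 ± 0.08). The outer mitochondrial membrane protein Tspo had 75.7 and 68.7 on day 30, against 136 and 193 on day 20 (-1.09 ± 0.19), and was not called when its probe sets were averaged (-0.66), with the constant at the 40th percentile (-0.97) or without the second day 20 array (-0.85). Among 19 genes of cholesterol synthesis and uptake, 1 rose (5.26%, beside 9.84% of all genes) and 0 fell. The rise was Cyp51, a demethylase of sterols that is abundant in spermatids, with 377 and 336 on day 30, against 110 and 86.3 on day 20 (1.79 ± 0.14). Another of its probe sets was called lower (-1.19), and the mean of its probe sets was 0.30 and was not called.

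Of 24 Sertoli cell genes, 3 fell (12.5%, beside 6.73% of all genes) and 0 rose, and 17 of the 24 were lower at an adjusted p under 0.05 with no threshold on size, as were 4797 of the 16429 genes tested. The median was -0.60, and the summed intensity of the 24 was 17153 and 16039 on day 30, against 25586 and 26075 on day 20. Shbg, the androgen-binding protein, had 90.9 and 87.6 on day 30, against 192 and 235 on day 20 (-1.18 ± 0.14). Cst12, a cystatin, had 2488 and 2282 on day 30, against 4892 and 5140 on day 20 (-1.07 ± 0.07). Kitl, the ligand of Kit, differed by -1.05 ± 0.13, and 1 of its 3 further probe sets, which ranged from -1.54 to 0.93, was called the same way. Its call ended with quantile normalization (-0.91), with the mean of its probe sets (-0.45), without the second day 30 array (-0.97) and without the second day 20 array (-0.95). Clu, clusterin, had 3769 and 3798 on day 30, against 4424 and 4655 on day 20 (-0.26 ± 0.06), and Sox9 and Amh were not called (-0.58 and 0.17). Tjp1 (-0.84) was not called either, but was called lower with a common median (-1.04), and gave -1.09 without the first day 30 array.

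Of 22 extracellular matrix genes, 9 fell (40.9%, beside 6.73% of all genes) and 0 rose, with a median of -0.85. Col1a1, a chain of type I collagen, had 19.6 and 27.7 on day 30, against 248 and 210 on day 20 (-2.92 ± 0.16, limma adjusted p = 3.40e-11), the largest fall of a named symbol. Its further probe set gave -0.67 and the mean of both -1.79. Col1a2, the partner chain, had 274 and 218 on day 30, against 729 and 824 on day 20 (-1.63 ± 0.13), and Col3a1 had 571 and 476 on day 30, against 1584 and 1672 on day 20 (-1.63 ± 0.08). The arrays of the days were apart for each of these. Among basement membrane genes, Col4a1 fell by 1.51, the linker Nid1 fell by 1.45, and the laminin chains Lamb1 and Lama1 stood at -1.29 and -1.10. With the mean of all probe sets Col4a1 and Lamb1 gave -0.90 and -0.83 and were not called. Lama1 had arrays far apart on day 30 and was not called without the second of them (-0.39), with the constant at the 40th percentile (-0.81) or in a fit of days 20 and 30 alone; without the first it gave -1.81. Dcn, decorin, differed by -1.55 in the tested probe set and by 0.16 in the other, and their mean was -0.69 and was not called. Col6a1 (-1.02) lost its call with quantile normalization (-0.87) and with the constant at the 40th percentile (-0.97). Its call also ended without the first day 30 array (-0.84) or the second day 20 array (-0.95).

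Peritubular and smooth muscle genes had 4 falls (36.4%, beside 6.73% of all genes) and 1 rise (9.09%, beside 9.84%) among 11. Cnn1, calponin, had 27.2 and 32.1 on day 30, against 138 and 87.1 on day 20 (-1.65 ± 0.28), and Tagln, transgelin, had 158 and 153 on day 30, against 529 and 457 on day 20 (-1.61 ± 0.14). Ptch1, the hedgehog receptor, differed by -1.46, and by 0.79 and -0.13 in its further probe sets, with a mean of -0.27 that was not called. Lmod1 (-1.29) was not called with the constant at the 40th percentile (-0.85) or in a fit of days 20 and 30 alone. Acta2, smooth muscle actin, had 1790 and 1569 on day 30, against 3031 and 3003 on day 20 (-0.85 ± 0.08), and of the alternative settings the common median alone gave a call (-1.05). Actg2, the enteric smooth muscle actin, went against the list, with 1100 and 1231 on day 30, against 149 and 128 on day 20 (3.01 ± 0.13, limma adjusted p = 1.25e-12).

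Markers of endothelium and macrophages were read as a check of other cells in the sample. Of 12 endothelial genes 0 were called by limma and 2 had an unadjusted p under 0.05 (median -0.02), and their summed intensity was 448 and 529 on day 30, against 370 and 445 on day 20. Kdr and Vwf, receptor and adhesion genes of endothelium, were called higher without 1 array: Kdr without the second day 20 array (1.03) and Vwf without the second day 30 array (1.39). Vwf was also called with the constant at the 5th percentile (1.27). Of 19 macrophage and antigen presentation genes, 1 rose (5.26%, beside 9.84% of all genes) and 1 fell (5.26%, beside 6.73%). Aif1, a calcium-binding protein listed here as a macrophage gene, had 1512 and 1639 on day 30, against 63.9 and 52.9 on day 20 (4.58 ± 0.32). C1qa, a complement subunit, had 129 and 84.0 on day 30, against 278 and 302 on day 20 (-1.41 ± 0.19). On day 10 the means of Aif1, C1qa and Lyz2 were 13.2, 195 and 309, so Aif1 took another course than these 2 members. The cells that carry the Aif1 signal were not tested. The macrophage genes Csf1r and Adgre1 differed by -0.18 and -0.32. Lyz2 (-0.97) was not called, but was called lower with a common median (-1.17), among other settings. The summed intensity of the 19 was 4588 and 4767 on day 30, against 3840 and 3856 on day 20, and no member was at 0. Aif1 made up that difference: without it the other 18 summed to 3076 and 3128 on day 30, against 3776 and 3803 on day 20, which turns its direction.

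Markers of blood and of tissues next to the testis had 1 rise in each list of 6 (16.7%, beside 9.84% of all genes). The 6 blood genes summed to 224 and 232 on day 30, against 103 and 172 on day 20, with 1 rise, Ermap of red cells (1.06 ± 0.35). The 6 epididymal genes summed to 229.9 and 199 on day 30, against 142 and 112 on day 20, with 1 rise, Lcn5 (1.17 ± 0.40). Both calls ended in several settings. The 6 adipose and skeletal muscle genes summed to 454 and 533 on day 30, against 211 and 125 on day 20. Most of that sum on day 30 was Adipoq, adiponectin, with 364 and 395 on day 30, against 60.3 and 23.2 on day 20 (3.07 ± 0.45). The other 5 summed to 89.7 and 138.6 on day 30, against 150.3 and 101.3 on day 20. Fabp4, another adipocyte gene, had 4.86 and 17.2 on day 30, against 72.9 and 2.15 on day 20, and was not called. No member of these lists was at 0, and their part in the other results was not tested.

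The X chromosome is silenced in pachytene spermatocytes and stays repressed for many genes in spermatids. In this comparison X-linked genes had calls in both directions. Of 559 tested, 65 rose (11.6%) and 78 fell (14.0%), beside 9.84% and 6.73% of all genes, and their median was -0.26 beside -0.10. The 5 largest X-linked rises were H2ap, Tmsb15a, Ppp1r2-ps7, H2al3 and Akap4. Ppp1r2-ps7, named as a pseudogene of a phosphatase inhibitor, had 838 and 812 on day 30, against 2.54 and 3.72 on day 20 (6.25 ± 0.39). The 5 largest X-linked falls were Apool, Rap2c, Itm2a, Pola1 and Msn. Msn, which encodes the membrane linker moesin, had 55.9 and 53.7 on day 30, against 198 and 211 on day 20 (-1.76 ± 0.15), and Itm2a, a membrane protein, had 46.7 and 55.5 on day 30, against 216 and 216 on day 20 (-1.93 ± 0.24). The further probe sets of Itm2a, Pola1 and Msn gave -0.72, 0.46 and 0.02, and none of these was called. The means of the probe sets of Pola1 and Msn, -0.68 and -0.87, were not called either.

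Among the 14 largest falls with a named symbol, 13 genes had day 20 means under 250. Of the 14, 11 had further probe sets, and for none of the 11 was another probe set called lower; for Map3k2, a kinase, and Parva, the focal adhesion protein parvin, another was called higher (1.03 and 1.18). When probe sets were averaged, Tatdn1 (-0.76), Map3k2 (-0.59), Fbxo32 (-0.85), Apool (-0.94), Parva (-0.49), Ttc9c (-0.59) and Zfp945 (-0.83) were not called, and Ticrr and Rap2c gave -1.04 and -1.09. Only Cd9, Mlc1 and Hormad1 had a single probe set. Cd9, a tetraspanin, had 13.3 and 21.3 on day 30, against 104 and 116 on day 20 (-2.25 ± 0.20), and 74.7 and 38.1 on day 35. Mlc1, a membrane protein, had 31.7 and 59.0 on day 30, against 209 and 220 on day 20 (-2.11 ± 0.38). Tatdn1, related to nucleases, had 20.9 and 24.4 on day 30, against 163 and 145 on day 20, and 61.0 and 54.9 on day 35. Fbxo32, a ubiquitin ligase subunit, had 24.4 and 3.27 on day 30, against 87.4 and 78.3 on day 20, and gave -1.49 without the second day 30 array in place of -2.26. For 8 of the 14 genes both day 35 arrays lay above both day 30 arrays, and for 13 both lay below both day 20 arrays. Of all 1106 genes called lower, 539 (48.7%) were also called lower on day 35 against day 20. Of the 1616 called higher, 1183 (73.2%) were also called higher on day 35 against day 20. Those calls share the day 20 arrays with the comparison described here. The part of low signal in these falls was not tested.

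The day of the highest mean is in large part set by the call itself, since a gene called higher cannot be highest on day 20 nor one called lower on day 30, so it is given as a description. Of all 16429 genes tested, 33.7% were highest on day 30 or 35, 23.8% on days 14 to 20 and 42.5% on days 0 to 10. Of the 1616 genes called higher, 1496 (92.6%) had their highest mean on day 30 or 35 and 111 had it on days 0 to 10. Of the 1106 called lower, 785 (71.0%) had it on days 0 to 10, 313 (28.3%) on days 14 to 20 and 8 on day 30 or 35. Some called genes were high at both ends of the course. Hsd17b3 had 1243 and 1316 on day 0, 78.3 and 95.7 on day 14, and 253 and 342 on day 30. Cyp17a1 and Ptgds were also high on day 0, with means of 1752 and 2911, against 2424 and 332 on day 30. Of the genes called higher, 549 lay under the median of their array on all 16 arrays up to day 20, and 30 of these exceeded 1000 on both day 30 arrays. Of all 16429 genes tested, 1926 lay under the median on all 16. A gene dim up to day 20 can pass the filter through its late arrays, so the 549 are partly set by filter and call. Col3a1, called lower, had 6464 and 6804 on day 0 and 359 and 344 on day 35.

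**Figure D5:**
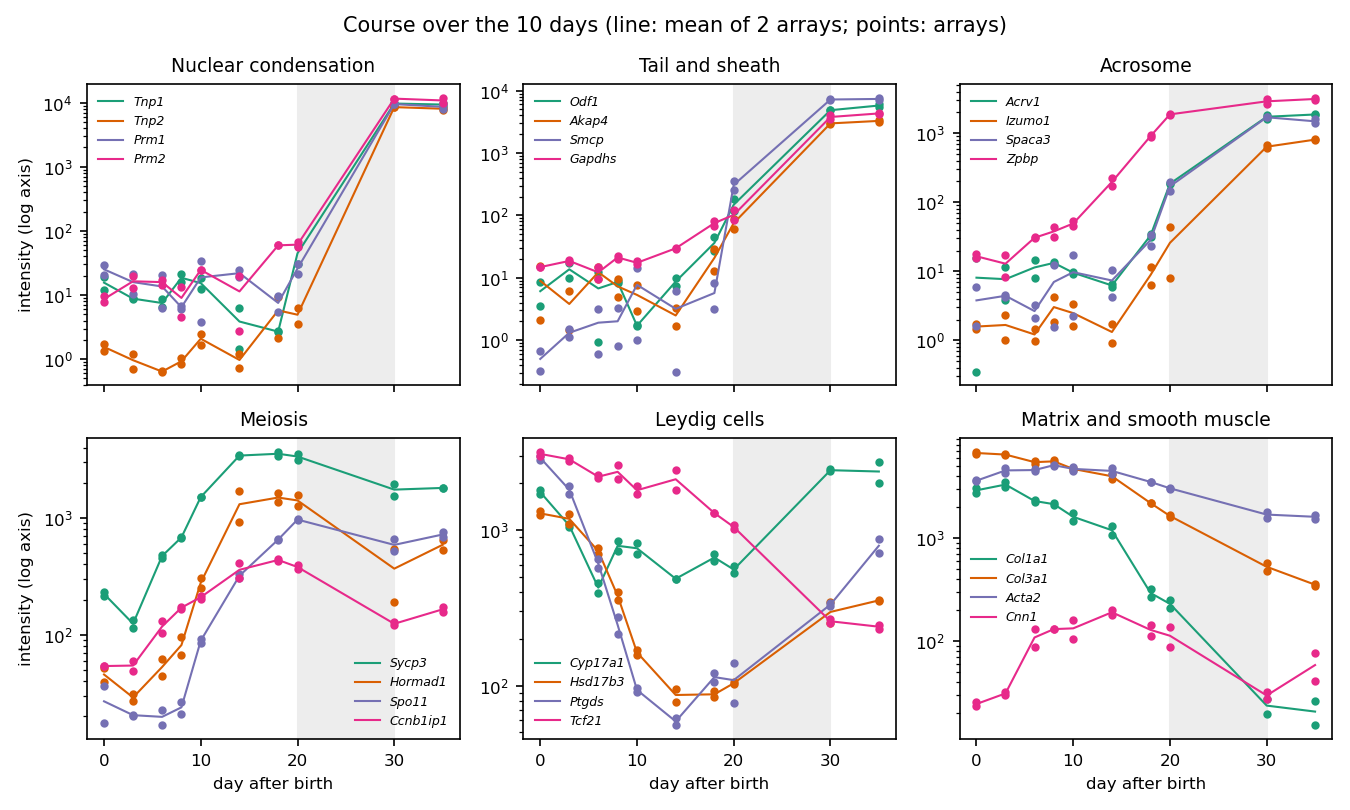
Intensity (vertical, log axis) over the 10 days after birth (horizontal) for 24 genes in 6 panels, with 1 point per array, a line through the means of 2 arrays, and the interval from day 20 to day 30 shaded. Transition protein and protamine genes lie at or below 65.9 on every array to day 20 and at 8475 or above on both day 30 arrays, the 4 tail genes lie at or below 30.02 on every array to day 14, and Zpbp is high before Izumo1.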

How the data were processed

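Per the labels' protocols, whole-testis RNA was isolated with Trizol, then made into biotin-labelled target by one-cycle 3' amplification. The deposited file gives 1 linear intensity per probe set and array for 45101 probe sets; the software and settings that made these intensities are not given in the sources used here. All arrays have one 2% trimmed mean, and no further normalization was applied. The table gives no detection calls, and 2 arrays a day limit the precision.

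Control probe sets (64) and those with several symbols (932) or no listed symbol (9160) were left out; symbols were updated through RefSeq (GRCm38.p6) for 34741 of 34945 probe sets. Each of 18193 genes was represented by its probe set with the highest mean log2 value, and tested if it lay over the 40th percentile of intensity on 2 arrays or more (16429 genes). Values were log2(intensity + 7.83). Limma 3.58.1 in R 4.3.3 (lmFit, eBayes with trend) fitted day as a factor over 20 arrays, with 10 residual degrees of freedom and a prior of 8.88. Two-sided p-values had Benjamini-Hochberg adjustment, and a gene was called when the adjusted p was under 0.05 and the log2 difference at least 1 in size. The model was tested on simulated data.

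The comparison, the genes and the 27 lists (471 genes) were chosen with earlier results of these data known. Genes chosen for description were the 14 largest called rises and 14 largest called falls whose arrays do not overlap and whose symbols are not clone names. Added to these were up to 4 members of each list with the largest difference, benchmark genes, and the 5 largest X-linked rises and falls. That made 152 genes in all, of which some are not named in the text. Other list members are given for context. Figures were drawn with matplotlib 3.10.9. The array titled day 18 replicate 2 names day 0 in another label; it was kept under its title. Promoter sequences are from a RefSeq table of 32851 promoters. For the genes chosen for description, promoters on chromosome 18 were left out. The shares counted over the table were not filtered by chromosome. The alternatives tried were other normalizations, constants, filters, probe set summaries, variance models, arrays in the fit and a replicate term.

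Replicate numbers did not pair the arrays: deviations of same-numbered arrays correlated across genes between -0.02 and 0.06 over 45 pairs of days.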

Additional observations from a re-analysis of the deposited data

How the results depend on the processing

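The number of genes lower on day 30 than on day 20 was 1106, and it was 1971 with arrays scaled to a common median, 663 with the added constant at the 40th percentile and 600 with the mean of all probe sets of a gene. The number of genes higher was within 1.5 times of 1616 in the 15 alternatives with a value. Leaving out 1 array of days 20 or 30 at a time gave 1445 to 1722 genes higher and 1102 to 1447 lower. With the replicate number as a block, 1614 genes were higher and 1104 lower; the numbers share no pairing in the labels or the data (r = 0.02 between the deviations of days 20 and 30), so the block is given once here. For the 152 genes chosen for description, 2271 values were recomputed. Of these, 2163 kept their side of the threshold, 56 lost the call and 51 gained one. A further 1 changed sign with a call in either fit. This was Mcm5, at 0.12 with the mean of all probe sets in place of -1.02. Changes of sign in genes called in neither fit were not counted apart from the 2163. Of the 103 called genes, 78 were called under each alternative that gave them a value. A difference of a gene that lies near the constant of 7.83 on either day is limited by signal over background, and its size moves with the constant.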

Other observations

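Many called genes carry only clone symbols and are not described above: 354 of the 1616 genes called higher and 42 of the 1106 called lower. The largest fall of the comparison, 3.71 in size on the log2 scale, belongs to one of them, 1700104B16Rik, which was singled out after its values were seen. The 2 Y-linked genes called higher were among 9 tested (22.2%, beside 9.84% of all genes), and 0 were called lower.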
